A study of Mus musculus with 12 samples.

Results

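The genes described here encode 10 proteins of the smooth muscle contractile apparatus, Acta2, Actg2, Myh11, Myl9, Tpm1, Tpm2, Tagln, Cnn1, Cald1 and Des. They were listed by symbol, matched to Ensembl identifiers, and all 10 were found among the 53715 genes counted. They were chosen by levels seen in earlier results of these libraries, in which several were lower in Tet1KO than in WT at 11 months, so the values of that age are given as a description. RNA was sequenced from 12 libraries of mouse testis cells labelled as spermatogonia, germ cells that line the outer wall of the seminiferous tubule, from animals of a C57BL6/129 background. A library held 1000 cells sorted by flow cytometry, whose RNA was copied by Smart-seq2, which amplifies cDNA of whole transcripts from few cells. The libraries form 4 groups of 3: Tet1KO at 11 months, WT at 11 months, Tet1KO at 3 months and WT at 3 months. TET1 oxidises 5-methylcytosine in DNA, and the labels do not give the part of the gene that the knockout allele lacks, whether it is lost in the whole animal, the markers of the sort, or whether each library is a different animal. P-values therefore measure only the spread between these libraries, which may be technical.

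In the testis, smooth muscle contractile genes are best known from peritubular myoid cells, the flat cells that wrap the seminiferous tubule and move sperm along it, and from the muscle of blood vessels. Force comes from myosin filaments of Myh11 and its light chains, which pull on filaments of smooth muscle actin when the regulatory light chain encoded by Myl9 is phosphorylated. Tropomyosins, calponin and caldesmon lie along the actin filament, and desmin forms intermediate filaments that tie the apparatus together. Many of these genes are switched on by serum response factor, which binds a short DNA element called the CArG box, together with its cofactor myocardin. Spermatogonia have their own actin and myosin from non-muscle genes. The sum of the 10 contractile genes lay between 46.4 and 449 CPM (counts divided by library size, on one common scale) in the 12 libraries.

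RefSeq promoters (build GRCm38.p6, 250 bases before to 50 after a transcription start) were held for 7 of the 10 genes, all but Tagln, Myh11 and Actg2. With 2 promoters for Cald1 there were 8 in all. The 4 printed here are those of the most abundant actin and light chain genes and of the tropomyosin pair, whose members differed from each other at 11 months. Capitals mark CArG boxes with at most 1 base off the consensus, searched on both strands. The Acta2 promoter lies at chr19:34255324-34255623 on the minus strand, that of Myl9 at chr2:156775214-156775513 on the plus strand, that of Tpm1 at chr9:67049164-67049463 on the minus strand and that of Tpm2 at chr4:43523505-43523804 on the minus strand.
Acta2: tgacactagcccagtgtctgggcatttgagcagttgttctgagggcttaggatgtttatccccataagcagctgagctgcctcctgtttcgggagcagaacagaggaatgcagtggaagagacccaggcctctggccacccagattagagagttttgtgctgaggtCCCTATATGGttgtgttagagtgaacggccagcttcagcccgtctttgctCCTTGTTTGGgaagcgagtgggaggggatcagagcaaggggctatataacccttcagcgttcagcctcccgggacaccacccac
Myl9: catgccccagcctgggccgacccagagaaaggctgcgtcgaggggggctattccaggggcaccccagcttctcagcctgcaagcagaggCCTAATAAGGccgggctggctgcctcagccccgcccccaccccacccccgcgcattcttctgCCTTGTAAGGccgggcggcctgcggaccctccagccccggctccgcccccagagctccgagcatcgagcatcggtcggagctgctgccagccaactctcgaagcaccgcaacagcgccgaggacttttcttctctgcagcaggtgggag
Tpm1: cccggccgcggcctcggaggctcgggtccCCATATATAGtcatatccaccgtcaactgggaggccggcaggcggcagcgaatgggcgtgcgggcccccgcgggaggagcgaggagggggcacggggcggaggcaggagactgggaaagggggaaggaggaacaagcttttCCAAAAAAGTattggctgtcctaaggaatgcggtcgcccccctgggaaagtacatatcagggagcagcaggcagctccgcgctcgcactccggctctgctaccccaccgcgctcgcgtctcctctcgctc
Tpm2: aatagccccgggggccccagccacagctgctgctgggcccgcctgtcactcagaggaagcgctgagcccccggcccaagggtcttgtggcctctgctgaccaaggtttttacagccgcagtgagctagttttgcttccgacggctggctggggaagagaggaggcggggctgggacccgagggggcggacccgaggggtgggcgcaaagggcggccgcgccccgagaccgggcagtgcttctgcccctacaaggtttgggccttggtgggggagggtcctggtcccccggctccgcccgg
An exact CArG box was found in 1 of the 8 promoters, that of Myl9, where it began 161 bases before the start. Among all 32851 promoters of the table, 1.63% held an exact box. With 1 base off allowed, 4 of the 8 promoters held a match (Acta2, Myl9, Tpm1 and the first promoter of Cald1), against 21.1% of all promoters. The windows of Tpm2, Des, Cnn1 and the second promoter of Cald1 held none. Whether the boxes are related to the levels of these genes was not tested.

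Library depth ran from 8325159 to 18223645 total counts, and where a library shows 0 counts its level may still reach 3 counts, which is 0.162 to 0.402 CPM by library and covers counting error only. Tet1KO replicate 2 and WT replicate 1 at 3 months stood apart from the other 10 libraries. In these, 30010 and 29420 genes were detected, and no more than 26995 in any other library. They lay at 121 and 131 on the first principal component, which held 39% of the variance. The labels carry a library code that begins with DY for Tet1KO replicate 1 and WT replicate 2 at 3 months and with AK for all others, without saying what it stands for. Tet1 had counts of 1, 17 and 5 in Tet1KO and 1, 16 and 5 in WT at 11 months, and of 6, 11 and 18 in Tet1KO and 15, 16 and 0 in WT at 3 months (exact two-sided permutation p = 0.9 at each age, smallest possible 0.1). Counts over the whole gene do not check the genotype, and the groups are named by their labels. Spermatogonial markers were abundant in all libraries: a list of 12 summed to between 3010 and 4280 CPM, and Dazl, a germ cell RNA-binding protein gene, averaged 1980 CPM in Tet1KO and 1930 CPM in WT at 11 months, and 2120 CPM in Tet1KO and 2180 CPM in WT at 3 months.

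The smooth muscle actin genes Acta2 and Actg2 had different patterns. Acta2 (ENSMUSG00000035783.8, chromosome 19, 34241090 to 34255336, minus strand, mm10), the main smooth muscle actin gene, was at 3.39, 23.4 and 8.52 CPM in Tet1KO and 115, 62.1 and 40.8 CPM in WT at 11 months. It was at 134, 188 and 31.2 CPM in Tet1KO and 174, 32.9 and 64.9 CPM in WT at 3 months. The 3 Tet1KO libraries of 11 months lay below all 9 others, while the 2 groups of 3 months overlapped over nearly their whole range. Actg2 (ENSMUSG00000059430.14, chromosome 6, 83512905 to 83536265, minus strand), the actin gene of visceral smooth muscle, was at 12.2, 9.94 and 1.34 CPM in Tet1KO and 16.3, 3.62 and 1.21 CPM in WT at 11 months, and at 4.55, 33.6 and 4.04 CPM in Tet1KO and 26.2, 9.95 and 2.01 CPM in WT at 3 months. All 4 groups overlapped, and its lowest group mean was that of WT at 11 months, 7.05 ± 8.13 CPM (SD, n = 3), beside 7.82 ± 5.73 CPM in Tet1KO of that age. Because bulk libraries hold RNA of all sorted cells, fewer cells of a type and less RNA per cell cannot be told apart here or in any value below.

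The myosin genes had a pattern like that of Acta2. Myh11 (ENSMUSG00000018830.9, chromosome 16, 14194535 to 14291372, minus strand), the smooth muscle myosin heavy chain gene, was at 0.554, 0.904 and 2.01 CPM in Tet1KO and 7.51, 5.13 and 1.43 CPM in WT at 11 months. At 3 months it was at 11.1, 10.1 and 2.02 CPM in Tet1KO and 14, 6.05 and 5.5 CPM in WT. The genotypes overlapped at 11 months only through replicate 3 of each, where the Tet1KO library was the higher one. Myl9 (ENSMUSG00000067818.6, chromosome 2, 156775420 to 156781658, plus strand), the regulatory light chain gene, was at 10.3, 20.3 and 6.68 CPM in Tet1KO and 74.6, 57.9 and 13.4 CPM in WT at 11 months, and at 89.9, 129 and 29.2 CPM in Tet1KO and 113, 43.2 and 39.6 CPM in WT at 3 months. Tet1KO replicate 2 of 11 months exceeded WT replicate 3, and the other 2 Tet1KO libraries of that age lay below every WT library.

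The tropomyosin genes differed from each other in range. Tpm2 (ENSMUSG00000028464.16, chromosome 4, 43514711 to 43523765, minus strand), beta-tropomyosin, was at 0, 0.904 and 0.501 CPM in Tet1KO and 12.3, 6.65 and 2.52 CPM in WT at 11 months, the 3 Tet1KO values resting on 0, 9 and 6 counts. It was at 14.4, 16 and 4.33 CPM in Tet1KO and 21.1, 4.51 and 11.4 CPM in WT at 3 months. No library outside the 11-month Tet1KO group was below 2.52 CPM. Tpm1 (ENSMUSG00000032366.15, chromosome 9, 67022590 to 67049406, minus strand), alpha-tropomyosin, which is also made as non-muscle isoforms, was at 16, 14 and 16.5 CPM in Tet1KO and 23.0, 19.1 and 16.6 CPM in WT at 11 months, and at 31.3, 28.6 and 16.3 CPM in Tet1KO and 28.3, 15.9 and 19.1 CPM in WT at 3 months. The 2 genotypes were separate at 11 months by only the gap between 16.5 and 16.6 CPM, and the highest library was 2.24 times the lowest.

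Of the genes for proteins bound to the actin filament, Tagln (ENSMUSG00000032085.5, chromosome 9, 45929619 to 45936058, minus strand), the transgelin gene, was at 8.62, 8.54 and 8.86 CPM in Tet1KO and 30.9, 15.7 and 12.2 CPM in WT at 11 months, and at 28.1, 23.6 and 11.4 CPM in Tet1KO and 36.0, 10.1 and 15.3 CPM in WT at 3 months. The 3 Tet1KO libraries of 11 months were the lowest of the 12 and nearly equal. Tagln is uncertain as a gene value, since 62.4% of its exon bases overlap the antisense gene Gm48529 and the counting used no strand and counted a fragment for each gene it overlapped. Cald1 (ENSMUSG00000029761.16, chromosome 6, 34598500 to 34775473, plus strand), the caldesmon gene, was at 0.739, 2.31 and 1.34 CPM in Tet1KO and 12.6, 4.73 and 1.97 CPM in WT at 11 months, and at 8.47, 11.1 and 9.04 CPM in Tet1KO and 11.6, 6.46 and 10.3 CPM in WT at 3 months. At 11 months the genotypes overlapped through Tet1KO replicate 2 and WT replicate 3, and every library of 3 months was higher than every Tet1KO library of 11 months. Cnn1 (ENSMUSG00000001349.5, chromosome 9, 22099216 to 22109630, plus strand), the calponin gene of differentiated smooth muscle, was the rarest of the set per length, at 0.0616, 0.904 and 0.0835 CPM in Tet1KO and 0.252, 0.467 and 1.1 CPM in WT at 11 months, and at 0.93, 4.69 and 0.0961 CPM in Tet1KO and 1.44, 0.41 and 0.268 CPM in WT at 3 months. Cnn1 overlapped among all groups, and 4 of its libraries were below the level that a count of 0 allows.

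Des (ENSMUSG00000026208.9, chromosome 1, 75360329 to 75368579, plus strand), which encodes desmin, was at 0.246, 0.502 and 0.585 CPM in Tet1KO and 2.9, 1.4 and 0.877 CPM in WT at 11 months, and at 3.31, 3.23 and 1.35 CPM in Tet1KO and 2.34, 1.44 and 1.21 CPM in WT at 3 months. The 3 Tet1KO libraries of 11 months were again below all 9 others. An antisense gene, Gm15179, shares 220 exon bases with Des but had only 2 counts in all libraries together.

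**Figure D1:**
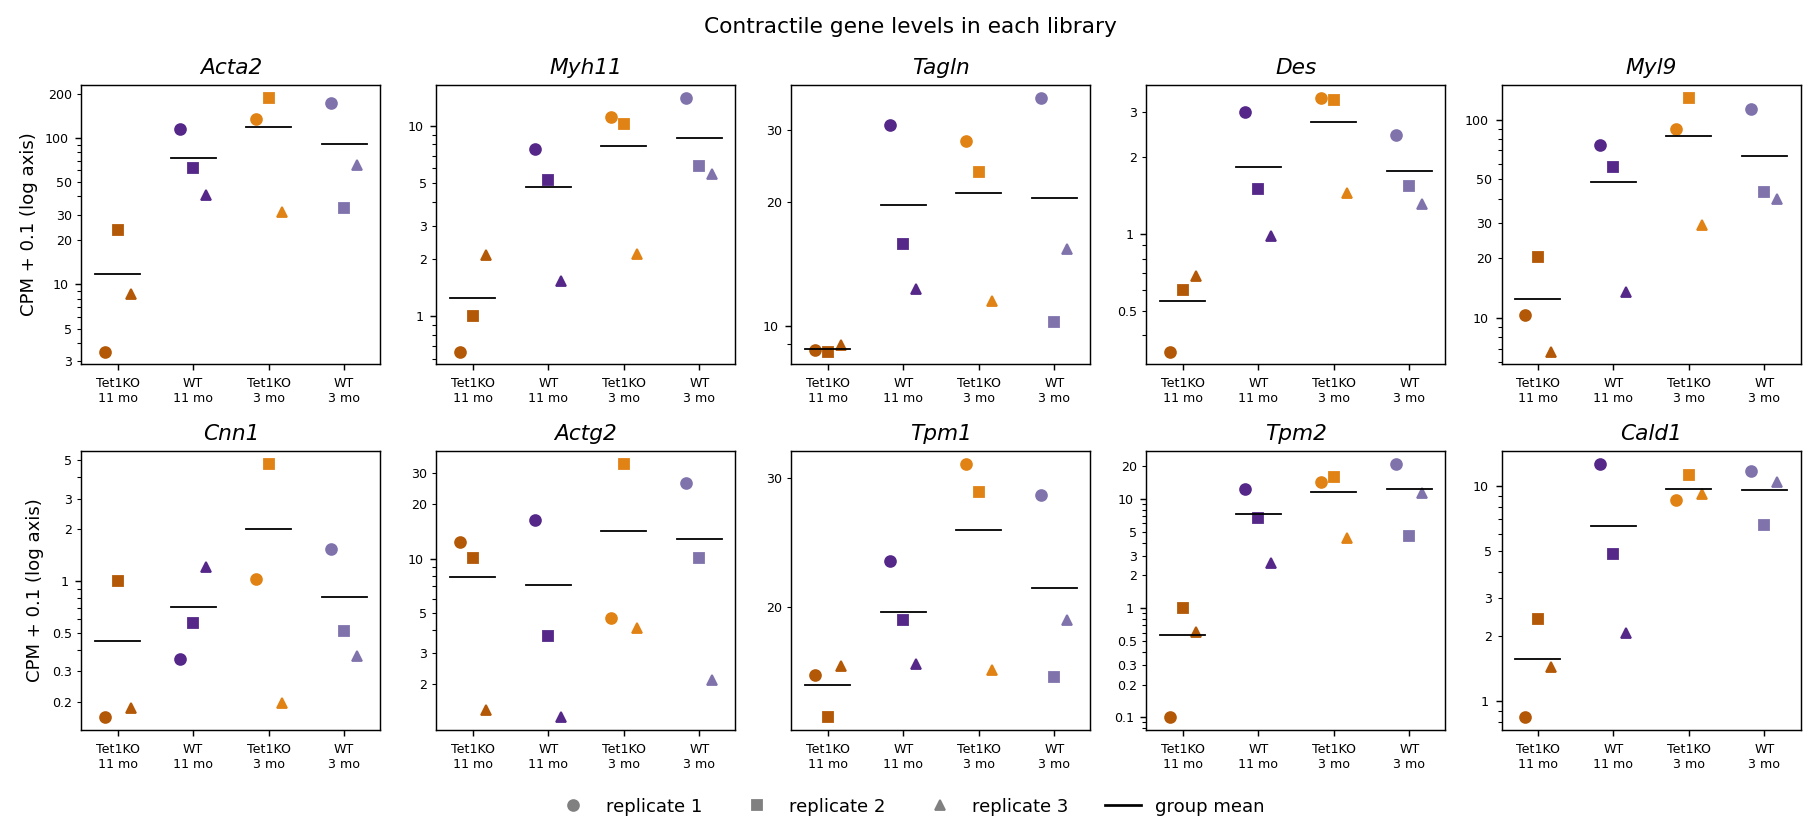
CPM of each contractile gene in each library (vertical log axis, CPM + 0.1; 1 panel per gene), by group, with marker shape for the replicate number and a black line for the group mean. In Acta2, Tagln, Des and Tpm2 the 3 Tet1KO libraries of 11 months sit below all others, while Actg2 and Cnn1 overlap in all 4 groups.

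Ranked by group mean, Tet1KO at 11 months was lowest for 9 of the 10 genes, all but Actg2, and Tet1KO at 3 months was highest for 8, with WT at 3 months highest for Myh11 and Tpm2. The step up from 11-month Tet1KO to the next group was larger than the SD of both groups for Acta2, Myh11, Tagln, Des, Myl9, Tpm1 and Tpm2. The genes were chosen with the low 11-month Tet1KO values known, so large steps there are favoured by the choice and are a description only. Acta2, for example, averaged 11.8 ± 10.4 CPM in Tet1KO, against 72.7 ± 38.4 CPM in WT at 11 months (SD, n = 3 each). None of the 20 other steps in these orders exceeded the larger SD of its 2 groups, so that WT at 11 months, Tet1KO at 3 months and WT at 3 months were not ordered beyond their spread for any gene. Per kb of exon, Myl9 and Acta2 led with means of 45.0 and 41.1 CPM per kb over the 12 libraries, followed by Tagln at 8.77, Actg2 at 6.69, Tpm1 at 3.14, Tpm2 at 2.71, Myh11 at 0.729, Cald1 at 0.558, Des at 0.43 and Cnn1 at 0.326 CPM per kb.

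Levels varied together across libraries. The Pearson correlation of a gene's log2 CPM with the mean of the other 9 over the 12 libraries was 0.964 for Myl9, 0.951 for Acta2, 0.938 for Des, 0.914 for Tpm2, 0.9 for Myh11, 0.882 for Tagln, 0.874 for Cald1 and 0.835 for Tpm1, and lower for Cnn1 (0.601) and Actg2 (0.422). These values are a description, since libraries of a group share their condition. The mean log2 CPM of the 10 genes was 0.92, 2.02 and 1.23 in Tet1KO and 3.72, 2.94 and 2.08 in WT at 11 months, and 3.8, 4.4 and 2.46 in Tet1KO and 4.28, 2.86 and 2.93 in WT at 3 months. Tet1KO replicate 3 of 3 months was low for most genes, and both libraries that stood apart by gene number were among the highest.

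**Figure D2:**
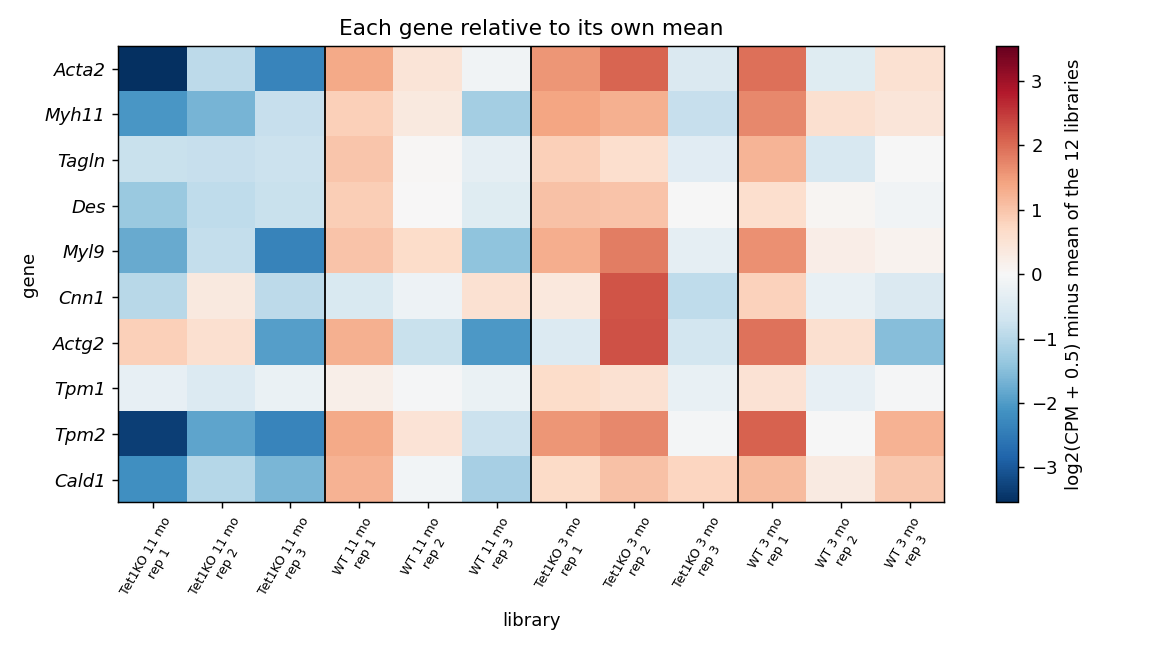
Log2(CPM + 0.5) of each contractile gene (rows) in each of the 12 libraries (columns, by group), minus that gene's mean over the libraries. Red is above and blue below the gene's own mean. The 11-month Tet1KO columns are blue for most rows, and Actg2 and Cnn1 break the pattern.

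The ratio within a pair of related genes does not depend on library depth. Actg2 made 78.3% (95% Wilson interval 72.8 to 82.9), 29.8% (25.2 to 34.9) and 13.6% (8.52 to 20.9) of the Acta2 and Actg2 counts in 11-month Tet1KO libraries, and 12.4% (11.1 to 13.9), 5.5% (4.32 to 6.99) and 2.87% (1.61 to 5.07) in WT of that age. Its share at 3 months was 3.27% (2.45 to 4.37), 15.1% (14.1 to 16.3) and 11.5% (8.6 to 15.1) in Tet1KO and 13.1% (11.9 to 14.4), 23.2% (19.4 to 27.5) and 3.01% (1.83 to 4.9) in WT. The 3 Tet1KO libraries of 11 months differed from each other by more than their intervals, and replicate 1 stood above every other library. Tpm2 made 0.0% (0 of 260 counts, upper bound 1.46%), 6.08% (3.23 to 11.2) and 2.96% (1.36 to 6.3) of the Tpm1 and Tpm2 counts in 11-month Tet1KO, and 34.9% (31.0 to 38.9), 25.9% (22.0 to 30.1) and 13.2% (8.97 to 19.1) in WT. All 3 Tet1KO shares were below all WT shares of that age. At 3 months the Tpm2 share was 31.4% (27.3 to 35.9), 35.9% (32.7 to 39.2) and 20.9% (16 to 26.9) in Tet1KO and 42.7% (38.9 to 46.5), 22.1% (16.9 to 28.4) and 37.4% (31.4 to 43.9) in WT, where the groups overlapped. The intervals cover counting error only, and the pairs were chosen after the values were seen.

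**Figure D3:**
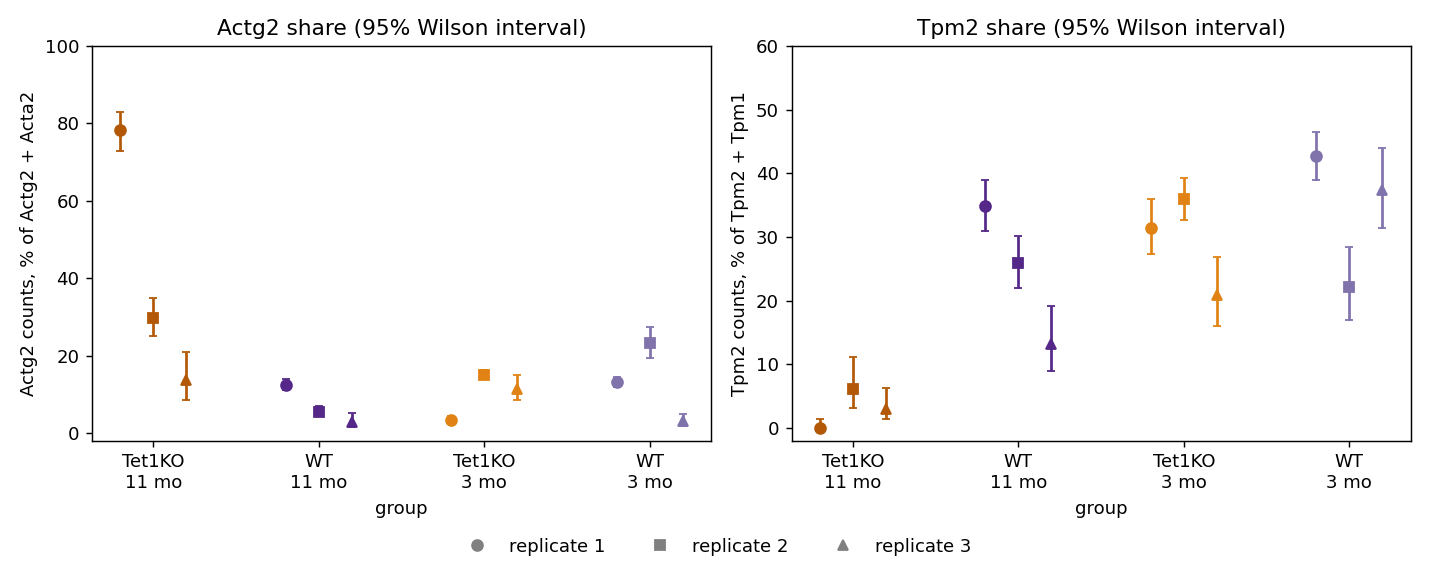
Share of Actg2 in the counts of Actg2 and Acta2 (left) and of Tpm2 in the counts of Tpm2 and Tpm1 (right), in percent, per library, with bars for the 95% Wilson interval. Actg2 reached 78.3% in 11-month Tet1KO replicate 1, and the Tpm2 share was lowest in all 3 libraries of that group.

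Non-muscle relatives of these genes differed by gene. Mean CPM per kb was above that of the contractile relatives in every group for Actb, Actg1, Myl12a, Myl12b, Tpm3, Tpm4 and Myl6, the last of which is not limited to non-muscle myosin. The same held for Cnn2, Cnn3 and the non-muscle myosin heavy chain gene Myh10. Of the other heavy chain genes, Myh14 was below Myh11 in every group, and Myh9 above it only in Tet1KO at 11 months. At 11 months Myh10 averaged 2.76 CPM per kb in Tet1KO and 2.19 in WT. Myh9 averaged 0.397 CPM per kb in Tet1KO and 0.439 in WT at that age, where Myh11 averaged 0.152 in Tet1KO and 0.619 in WT. Tagln2, a relative of Tagln, averaged 11.6 CPM per kb in Tet1KO and 9.84 in WT at that age, where Tagln averaged 4.36 in Tet1KO and 9.85 in WT. Per kb, Actb and Actg1 averaged 275 ± 81.8 and 216 ± 18.5 CPM per kb in Tet1KO and 310 ± 65.3 and 218 ± 16.5 CPM per kb in WT at 11 months (SD, n = 3), where Acta2 averaged 6.61 ± 5.84 CPM per kb in Tet1KO and 40.8 ± 21.6 CPM per kb in WT. The non-muscle light chain genes Myl12a and Myl12b averaged 139 ± 23.6 and 185 ± 0.694 CPM per kb in Tet1KO and 156 ± 13.2 and 218 ± 41.5 CPM per kb in WT at that age. Among 14 tested non-muscle paralogues, 10 were lower and 4 higher in Tet1KO at 11 months, with a median log2 fold change of -0.13 and none called by edgeR. The values ran from -1.2 ± 0.56 (SE) for Vim, the vimentin gene, to 0.33 ± 0.189 for Myh10. The non-muscle tropomyosin genes Tpm3 and Tpm4 averaged 14.8 ± 4.47 and 31.7 ± 5.65 CPM per kb in Tet1KO, against 16.1 ± 5.21 and 31.9 ± 5.53 CPM per kb in WT.

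**Figure D4:**
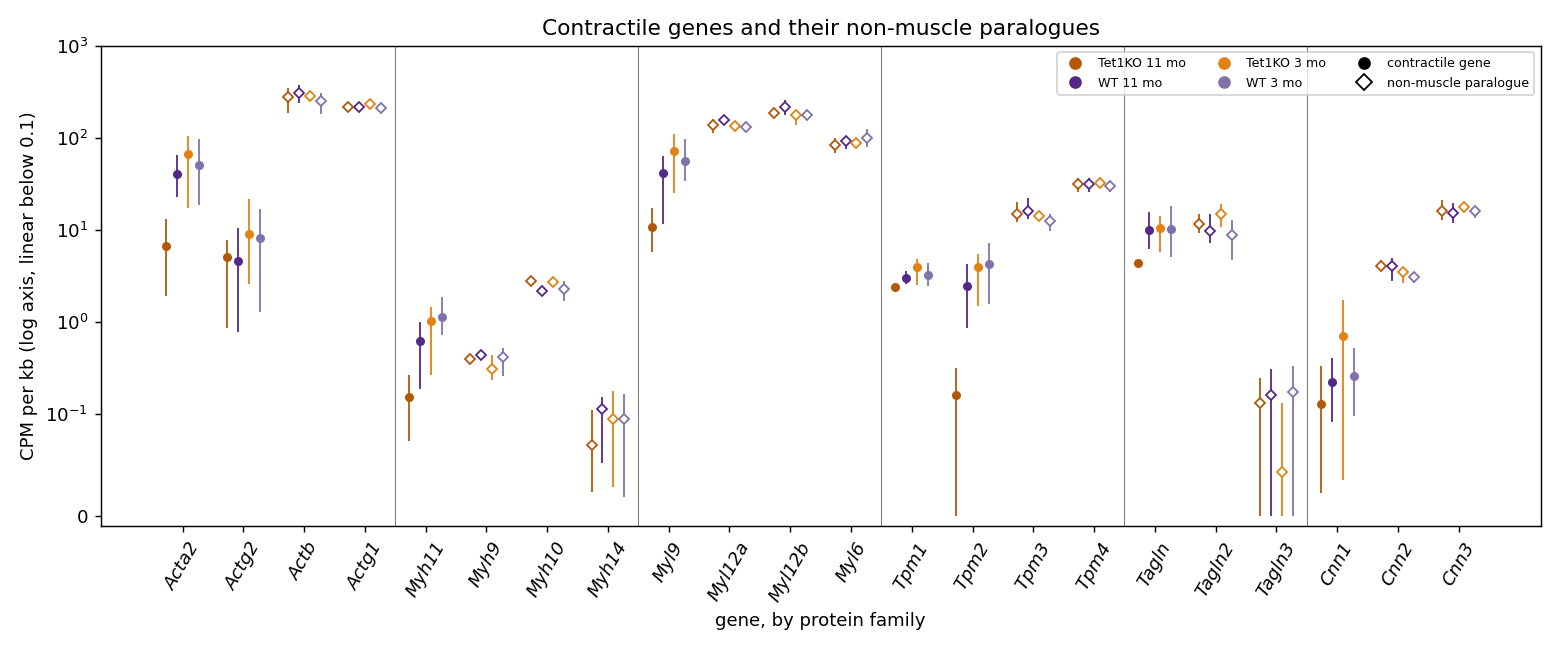
CPM per kb of contractile genes (filled) and their non-muscle paralogues (open diamonds), by protein family, with the mean of 3 libraries and a bar for their lowest and highest value in each group (log axis, linear below 0.1). Acta2 averaged 6.61 CPM per kb in 11-month Tet1KO and 40.8 in WT of that age, where Actb averaged 275 and 310 CPM per kb.

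Whether Tet1KO and WT differ in contractile gene levels in younger animals was tested at 3 months. edgeR's quasi-likelihood test with Benjamini-Hochberg adjustment called none of the 10 genes (all passed its filter on low counts, adjusted p = 1.0 for each), against 0.0% of the 19815 genes tested. At an unadjusted p under 0.05 there were 225 genes, none of them contractile, and limma-voom called 0 and DESeq2 2 genes. The log2 fold change of Tet1KO over WT was 0.38 ± 0.823 (SE) for Acta2, 0.34 ± 0.71 for Myl9, 0.65 ± 0.591 for Des, 0.27 ± 0.274 for Tpm1 and 1.41 ± 1.24 for Cnn1. It was 0.14 ± 1.2 for Actg2, 0.04 ± 0.485 for Tagln, 0.01 ± 0.568 for Cald1, -0.09 ± 0.856 for Tpm2 and -0.14 ± 0.718 for Myh11. In all, 8 were higher and 2 lower, with a median of 0.21 (-0.02 over all genes). Cnn1, counted among the 8, had 87 counts in Tet1KO replicate 2 and at most 19 in any other library of 3 months. With only the compared groups in the fit, Cnn1 did not pass the filter, and the median of the 9 genes left was 0.13. In no gene did the 2 groups fail to overlap, against 3.62% of genes lower and 3.32% higher without overlap. The standard errors ran between 0.274 for Tpm1 and 1.24 for Cnn1, so the missed threshold does not show that the genotypes were alike. The median was -0.14 without Tet1KO replicate 2, 0.86 without WT replicate 1, 0.48 without both, and -0.08 among the libraries coded AK. In the DY pair, which has no replicate, 9 of the 10 genes were higher in Tet1KO.

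At 11 months the same fit gave a log2 fold change of Tet1KO over WT of -4.01 ± 1.04 (SE) for Tpm2, -2.65 ± 0.89 for Acta2, -2.16 ± 0.611 for Cald1, -2.03 ± 0.773 for Myh11, -1.98 ± 0.746 for Myl9 and -1.96 ± 0.633 for Des. It was -1.18 ± 0.494 for Tagln, -0.81 ± 1.32 for Cnn1, -0.34 ± 0.275 for Tpm1 and 0.14 ± 1.21 for Actg2, with a median of -1.97 (0.02 over all genes). As ratios of group means, WT was 15.3 times Tet1KO for Tpm2, 6.16 times for Acta2 and 1.26 times for Tpm1. The genes were chosen with these values known, so they are a description and carry no test. edgeR called 0.0% of all genes in this contrast (326 genes at an unadjusted p under 0.05), limma-voom called 0 and DESeq2 3. In 5 of the 10 genes (Acta2, Tagln, Des, Tpm1 and Tpm2) the Tet1KO libraries were all lower than the WT libraries, beside 2.54% of all genes, and in none were they all higher, beside 2.82%. Between libraries with the same replicate number, all 10 genes were lower in Tet1KO in the pair of number 1 and 8 in each of the pairs of numbers 2 and 3. At 3 months, where the numbers do not pair the libraries, 8, 0 and 8 of the 10 genes were lower in Tet1KO for numbers 1, 2 and 3. These pair counts re-use the values above, and the share over all genes was not counted. Without WT replicate 1 the median was -1.31.

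**Figure D5:**
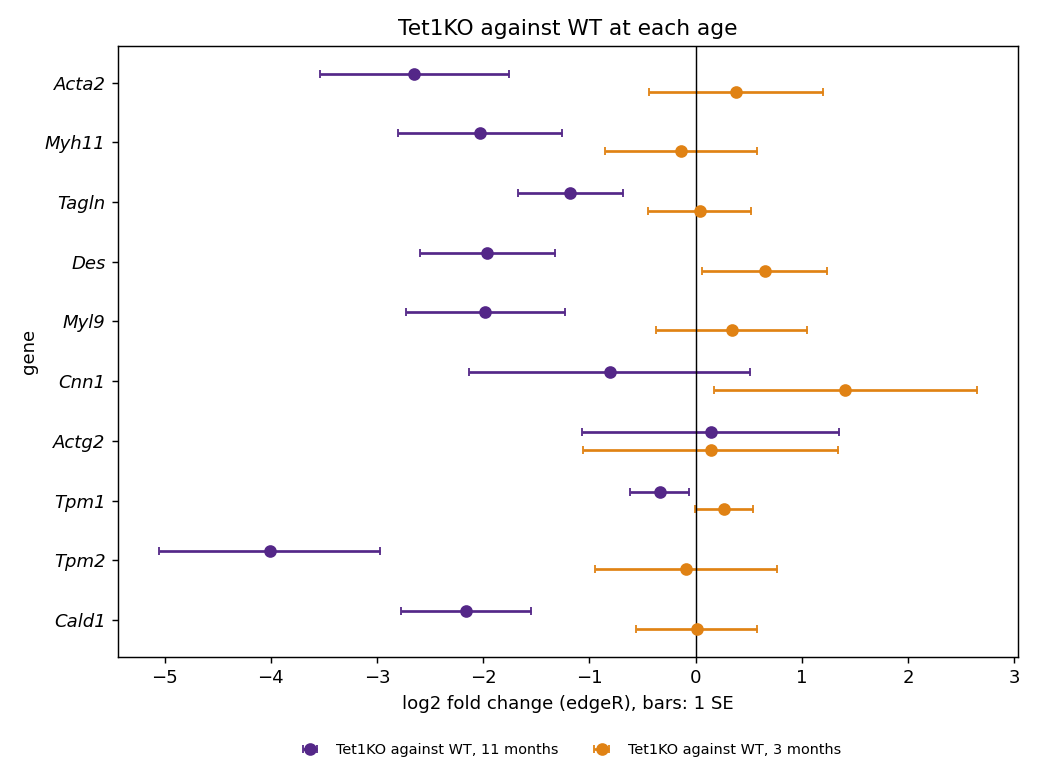
Log2 fold change of Tet1KO over WT at 11 months (purple) and at 3 months (orange) for each contractile gene, with bars of 1 SE from the edgeR fit of 12 libraries. At 3 months every bar but those of Des and Cnn1 reaches 0, and at 11 months 8 genes lie below -0.8 with Tpm2 lowest at -4.01.

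Each age difference shares its 11-month libraries with the contrast above, so they are given side by side with no test. In 11-month over 3-month Tet1KO libraries all 10 genes had a negative log2 fold change. It was -4.7 ± 1.06 (SE) for Tpm2 and -0.72 ± 0.276 for Tpm1 at the ends of the range, with Acta2 at -3.35 ± 0.913, Myh11 at -2.75 ± 0.787, Myl9 at -2.74 ± 0.765, Cald1 at -2.72 ± 0.62 and Des at -2.56 ± 0.641, and a median of -2.64 (-0.01 over all genes). In 7 genes (Acta2, Myh11, Tagln, Des, Myl9, Tpm2 and Cald1) the 11-month libraries were all below the 3-month libraries, beside 3.09% of all genes, and in none all above, beside 3.1%. In WT the same comparison ran from -0.85 for Myh11 to 0.05 for Des, with a median of -0.37 (-0.06 over all genes), and no gene separated the ages, beside 6.12% of all genes lower and 5.42% higher without overlap. The WT median was 0.24 without 3-month replicate 1. edgeR called 0.0% of genes in the Tet1KO ages (462 at an unadjusted p under 0.05; DESeq2 called 7 and limma-voom 0) and 0.0% in the WT ages (1124; DESeq2 0 and limma-voom 0). The difference of the genotype effects between the ages ran from -3.92 ± 1.33 for Tpm2 to -0.00298 ± 1.75 for Actg2, with a median of -2.19 (0.06 over all genes). Here edgeR called 0.0% of genes (311 at an unadjusted p under 0.05), and DESeq2 and limma-voom called 0.

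Regulators and partners of the contractile apparatus were counted in the same contrasts. Of 10 listed symbols of smooth muscle gene regulators 8 were found, since Mrtfa and Mrtfb were also listed under older symbols. Of the 8 regulators 6 passed the filter. Of these 5 were higher and 1 lower in Tet1KO at 11 months, with a median log2 fold change of 0.17 and none called by edgeR. The serum response factor gene Srf was at 15.2 ± 5.01 CPM in Tet1KO and 12.2 ± 1.97 CPM in WT, and Mrtfb, a myocardin-related cofactor gene, at 47.6 ± 9.41 CPM in Tet1KO and 43.6 ± 6.23 CPM in WT (SD, n = 3). Myocd, the myocardin gene, had counts of 0, 5 and 0 in Tet1KO and 11, 4 and 1 in WT at 11 months, and 2, 16 and 0 in Tet1KO and 9, 8 and 2 in WT at 3 months, too few to compare. Of 12 contraction control genes, 7 were lower and 5 higher in Tet1KO at 11 months with a median of -0.03, and their most abundant members Rock1, Rock2, Rhoa and Ppp1r12a, all used by many cells, averaged 422, 196, 180 and 134 CPM in Tet1KO and 408, 206, 180 and 124 CPM in WT. Of 17 other smooth muscle filament and junction genes, 13 were lower and 4 higher, with a median of -0.39, none called by edgeR.

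Lmod1, Mylk and Csrp1 were chosen after their values were seen. Lmod1, the leiomodin gene that seeds smooth muscle actin filaments, had 5, 0 and 1 counts in Tet1KO and 24, 13 and 6 in WT at 11 months, a log2 fold change of -2.70 ± 1.09 (SE). Mylk, the myosin light chain kinase gene, was at 16.4, 7.94 and 12.9 CPM in Tet1KO and 37.1, 18.1 and 9.76 CPM in WT at 11 months, where the groups overlapped. In Tet1KO at 11 over 3 months the log2 fold change was -1.33 ± 0.518 for Mylk and -1.08 ± 0.305 for Csrp1, the gene of a LIM protein of muscle. For Tet1KO over WT it was -0.81 ± 0.514 for Mylk and -0.39 ± 0.304 for Csrp1 at 11 months. At 3 months it was 0.2 ± 0.508 for Mylk and 0.61 ± 0.303 for Csrp1. Neither gene passed edgeR's adjusted threshold in any of these contrasts.

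Marker lists of other cells were counted beside the contractile genes. Stroma genes were lower in 9 of 12 tested in Tet1KO at 11 months, with a median of -0.42, and in 11 of 12 in 11-month over 3-month Tet1KO, with a median of -1.31. The stroma sum was 503, 138 and 74.6 CPM in Tet1KO and 752, 61.5 and 136 CPM in WT at 11 months, where the contractile sum was 52.1, 81.7 and 46.4 CPM in Tet1KO and 296, 177 and 92.0 CPM in WT. WT replicate 1 was highest and Tet1KO replicate 3 low in both sums, while Tet1KO replicate 1 was high only in the stroma sum, of which Dcn, the decorin gene, made 429 CPM, and WT replicate 2 was lowest only in the stroma sum. Of 13 tested Sertoli markers, 12 had a lower level in Tet1KO at 11 months, median -1.07, and 13 at 3 months, median -1.58, where the contractile median was 0.21. Leukocyte genes were higher in 12 of 12 at 11 months, median 0.69, with sums of 526 to 1080 CPM in Tet1KO and 88.0 to 1120 CPM in WT, the low value being WT replicate 2. Pericyte and vascular mural genes were lower in 4 of 7 and higher in 3 at 11 months, median -0.03. Between the ages, mural genes were lower at 11 months in 7 of 7 in Tet1KO, median -0.28, and in 6 of 7 in WT, median -0.13. In Tet1KO against WT at 11 months, endothelial genes were 5 lower and 5 higher of 10, and spermatogonial genes 5 lower and 7 higher of 12, median 0.03. Spermatid genes summed to 2320, 995 and 375 CPM in Tet1KO and 2540, 412 and 272 CPM in WT at 11 months, with replicate 1 the highest of each genotype. Striated muscle genes were lower in 7 of 10 (median -0.34), genes of the hedgehog response of peritubular cells higher in 4 of 5 (median 0.14), and of the 6 Leydig genes only Star passed the filter (-0.44). edgeR called no gene of these marker lists, none was at 0 in every library, and the part these cells play in the contractile values was not tested.

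The genes whose log2 CPM was most like the mean of the contractile genes over the 12 libraries were Mustn1 (Pearson r 0.954, Spearman rho 0.937), Kitl (0.932), Mgst3 (0.93), Gm48529 (0.93), Cpe (0.925), Nrep (0.917), Snhg18 (0.901), S1pr3 (0.9), Cavin1 (0.892) and Kcnab1 (0.889). Gm48529 shares reads with Tagln, as above. Without the 2 libraries farthest from the median, r stayed between 0.779 for Kcnab1 and 0.906 for Mgst3. Mustn1 was at 0.493, 1.51 and 0.752 CPM in Tet1KO and 11.4, 4.49 and 3.84 CPM in WT at 11 months, and at 9.92, 8.68 and 2.88 CPM in Tet1KO and 19.7, 4.1 and 5.63 CPM in WT at 3 months. Kitl, which encodes the ligand of the Kit receptor, was at 0.616, 1.81 and 0.501 CPM in Tet1KO and 3.22, 2.92 and 0.877 CPM in WT at 11 months, and at 5.27, 5.61 and 2.02 CPM in Tet1KO and 12.2, 4.21 and 2.82 CPM in WT at 3 months. Both had a low 11-month Tet1KO group, overlapping WT at 11 months in Kitl and not in Mustn1. Genes chosen for likeness to the contractile mean, itself low in that group, tend to be low there by choice. Their low level is therefore not a separate result.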

How the data were processed

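RNA-seq libraries of sorted spermatogonia were analysed from raw counts that the authors deposited, whole numbers per gene and library. The counting tool was featureCounts 1.6.2 with GENCODE vM17, per the file headers, run with a mapping quality minimum of 30, no strand option, multi-mapped fragments included and overlapping genes each counted. The submitters' processing notes name HISAT2, SAMtools and build mm10, without tool versions. Symbols were matched to 53620 of 53715 genes. Samples were grouped by their titles. Reads carry no molecular identifiers, so limits and intervals cover counting error only.

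Genes were filtered with filterByExpr (19815 left), scaled with TMM and tested with edgeR 4.0.16 (R 4.3.3), robust quasi-likelihood, all 12 libraries, 1 mean per group, two-sided, Benjamini-Hochberg adjusted over all genes at 0.05. CPM are computed from these counts, log2 CPM with a prior count of 2. Fold changes are Tet1KO over WT and 11 over 3 months. The fit was tested on simulated data, with large changes set in abundant genes only and no libraries that stand apart. That check does not cover the rarer contractile genes. Shares have 95% Wilson intervals. Alternatives were DESeq2 1.42.0, limma 3.58.1 voom with quality weights, other size factors, no filter, compared groups only, the replicate block and each library left out. Leaving out the libraries that stood apart, those coded DY, and the block with the compared groups only were chosen after seeing the data.

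The contractile genes and all lists were chosen with earlier results of these data known. Genes were named by rule: the 10 contractile genes, up to 4 of each list by mean CPM, the 10 genes of highest correlation with the contractile mean, and Tet1. Lmod1, Mylk, Csrp1, Myocd, Tpm3, Tpm4, Myh9, Myh10, Myh14, Myl6, Cnn2, Cnn3, Tagln2 and Vim fall outside it and were chosen after their values were seen. Pairs of libraries in a group differed by more than counting noise (chi-square per degree of freedom at least 9.85), so none looked like 1 library deposited again. This does not show that they are separate animals. Libraries with the same replicate number deviated together at 11 months (r 0.371, 0.167 and 0.332, from the data rather than the labels) but not at 3 months (-0.589, -0.182 and 0.296).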

Additional observations from a re-analysis of the deposited data

How the results depend on the processing

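With DESeq2 the count of genes called was 2 for Tet1KO against WT at 3 months, 3 at 11 months and 7 for the ages in Tet1KO, against 0 with edgeR in each. Among them were Tpm2 at 11 months (adjusted p = 0.0286, range 0.0286 to 1.0 over its alternatives) and, between the ages in Tet1KO, Tpm2 (0.000736 to 1.0), Cald1 (0.0338 to 1.0) and Myl9 (0.0413 to 1.0), all in contrasts known when the genes were chosen. At 11 months 204 of 208 single-gene values kept their sign, and the 4 that did not were all of Actg2, with 1 library left out. At 3 months 27 of 208 changed sign, none past a threshold, and the cause was not tested. Values with the other sign were, with limma-voom, Cnn1 -0.10, Actg2 -0.65 and Tpm2 0.10; without the 2 libraries that stood apart, Myh11 0.17, Actg2 -0.49 and Tpm2 0.23; and among the AK libraries, Acta2 -0.11, Tagln -0.53, Tpm1 -0.0547 and Cald1 -0.10. With each library left out, the 3-month values ran from -0.14 to 1.27 for Acta2, -0.47 to 0.42 for Myh11, -0.28 to 0.73 for Tagln, -0.14 to 1.0 for Myl9, -0.50 to 2.47 for Cnn1, -1.58 to 1.23 for Actg2, -0.49 to 0.55 for Tpm2 and -0.20 to 0.19 for Cald1. With each library left out, the median of the 10 genes ran from -0.14 to 0.86 at 3 months, -2.36 to -1.31 at 11 months, -2.94 to -2.32 between the Tet1KO ages, -0.82 to 0.24 between the WT ages and -2.71 to -1.66 for the difference of genotype effects, which was -1.57 with limma-voom. The replicate block changed no edgeR call: the median was 0.18 at 3 months and -1.7 at 11 months with all libraries. With the compared groups only it was 0.19 and -1.87, over the 9 genes that passed the filter there, without Cnn1. Depth limits the 11-month Tet1KO values of Cnn1, Des and Tpm2, which rest on at most 9 counts per library.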
